A study of Mus musculus with 6 samples.

Results

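The angiopoietin and Tie receptor system is described here by 5 genes: the ligand genes Angpt1 and Angpt2, the receptor tyrosine kinase genes Tek (also called Tie2) and Tie1, and the receptor phosphatase gene Ptprb. They were taken by gene symbol as 5 of the 22394 genes in a table of mRNA sequencing of whole mouse embryonic kidneys at E13.5. The mutant group held 3 libraries from Foxd1Cre;Ptch1 (flox/-) embryos, which carry Cre at the Foxd1 gene of renal stromal progenitors, 1 floxed Ptch1 allele and 1 null Ptch1 allele. The control group held 3 libraries from Ptch1 (flox/+) littermates, with 1 floxed and 1 wild-type allele and no Cre given in the label. A floxed Ptch1 allele is thus shared by both groups, while Cre and the null allele are present only in mutants and cannot be told apart from loss of Ptch1 in the Foxd1 lineage. Ptch1 encodes the receptor that restrains Hedgehog signalling. The design describes paired kidneys of 3 mutant mice, but whether each library came from 1 animal is not given, so p-values measure the spread between libraries.

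Tek is expressed by endothelial cells, and Angpt1, secreted mainly by mural and mesenchymal cells, activates it and stabilises vessels. Angpt2 is made mainly by endothelial cells and acts as an antagonist or a weak agonist of Tek depending on context. Tie1 has no high-affinity angiopoietin ligand and forms complexes with Tek, and Ptprb (also called VE-PTP) removes phosphate from Tek and associates with the endothelial cadherin Cdh5. In the kidney the system is known for its part in forming the peritubular and medullary capillaries, and podocytes are a further source of Angpt1.

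Libraries held 13261588 to 47847925 reads in mutants and 21644399 to 25416896 reads in controls. Control 2 lay at 75.8 on the first principal component and the other 5 libraries at -24.6 to 8.49. The groups were not balanced for sex, since the Y-linked gene Ddx3y was at 13.9 to 16.2 FPKM in the mutants, and at 17.8 FPKM in control 2 against 0.0598 FPKM in control 1 and 0.0177 FPKM in control 3. Xist, the RNA that silences an X chromosome in females, was at 0.103, 0.206 and 6.19 FPKM in mutants 1 to 3, against 72.9, 0.0471 and 53.3 FPKM in controls 1 to 3, so mutant 3 held both Ddx3y and some Xist. The kidney genes Six2 (123 ± 3.94 FPKM in mutants and 144 ± 40.9 FPKM in controls, SD, n = 3 each) and Foxd1 (49.4 ± 12.8 FPKM in mutants and 63.2 ± 27.7 FPKM in controls) were present in every library of the tissue labelled whole kidney.

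The receptor genes Tek and Tie1 lie apart on chromosome 4, and their start regions are shown because both are endothelial genes and the promoter table used here held these 2 of the 5 genes. Each sequence, from RefSeq with build GRCm38.p6, runs from 250 bases before to 50 bases after the start of the RefSeq gene. Capitals mark GGAAG, a form of the ETS motif, on either strand (CTTCC where it lies on the other strand). The RefSeq and GENCODE starts coincide for Tek, whereas for Tie1 the RefSeq start lies 212 bases inside the gene as GENCODE annotates it, so most of the Tie1 window is within that longer gene. ETS proteins are transcription factors of endothelial genes.
Tie1, chr4:118489800-118490099, minus strand: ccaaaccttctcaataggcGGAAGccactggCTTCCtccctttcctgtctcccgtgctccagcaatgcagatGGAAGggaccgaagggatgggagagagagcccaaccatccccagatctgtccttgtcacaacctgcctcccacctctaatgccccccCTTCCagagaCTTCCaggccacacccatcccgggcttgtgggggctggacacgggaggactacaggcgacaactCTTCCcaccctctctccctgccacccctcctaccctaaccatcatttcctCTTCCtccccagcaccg
Tek, chr4:94739039-94739338, plus strand: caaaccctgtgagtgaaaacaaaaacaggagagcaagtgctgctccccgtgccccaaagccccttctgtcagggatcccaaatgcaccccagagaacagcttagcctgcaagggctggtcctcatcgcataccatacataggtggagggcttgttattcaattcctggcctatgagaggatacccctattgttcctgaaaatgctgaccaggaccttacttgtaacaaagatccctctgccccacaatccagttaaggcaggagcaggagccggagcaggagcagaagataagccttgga
The Tie1 window held GGAAG 7 times and the Tek window 0 times. Of 32851 mouse promoter windows of the same length, 71.4% held it at least once and 0.234% at least 7 times. The shorter ETS core GGAA was not counted. It occurs in the Tek window on the other strand (as ttcc), so the 0 concerns GGAAG only. The longer ETS form CCGGAAG, which contains GGAAG, was in neither window and in 8.86% of all windows. The forkhead motif TGTTTAC (3.65% of windows) and the GLI motif GACCACCCA (0.253%) were also in neither. The GATA motif AGATAA (11.2% of windows) was found in Tek once, starting 36 bases after its start, and not in Tie1. Both strands were searched, and a match describes letters in the window, not binding.

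In mutant kidneys 1 of the 5 genes, Tie1, passed the test over all genes, against 0.219% of the 16933 genes tested that were called higher. The test was limma on log2(normalized count + 1), with a Benjamini-Hochberg adjusted p under 0.05 taken as a call. All 5 fold changes were positive, as were those of 49.1% of the genes tested, and each of the 5 had a p below 0.05 before adjustment, against 5.26% of genes with such a p and a higher level in mutants. In 4 of the 5 the mutant and control libraries did not overlap, where 7.57% of the genes tested had every mutant above every control. Without control 2, the library that stood apart, 4 of the 5 genes were called, all but Tek, where 0.658% of 16713 genes were called higher. The controls that remain in that fit, 1 and 3, had almost no Ddx3y and high Xist while every mutant expressed Ddx3y, so in all values without control 2 genotype and sex cannot be told apart. Without any 1 of the other 5 libraries limma called 0 of the 5, while 4 or 5 had a p below 0.05 before adjustment. The median log2 fold change was 1.05 for the 5 genes and -0.0074 over all genes tested. In the authors' deposited table, 3 of the 5 (Angpt2, Tie1 and Ptprb) were called higher, against 3.07% of its 15881 genes with an adjusted p. All 5 passed the filter on low counts, with 146 to 5087 reads per gene and library. Whole kidneys were measured, so more expressing cells and more RNA per expressing cell cannot be told apart in any of these values.

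**Figure D1:**
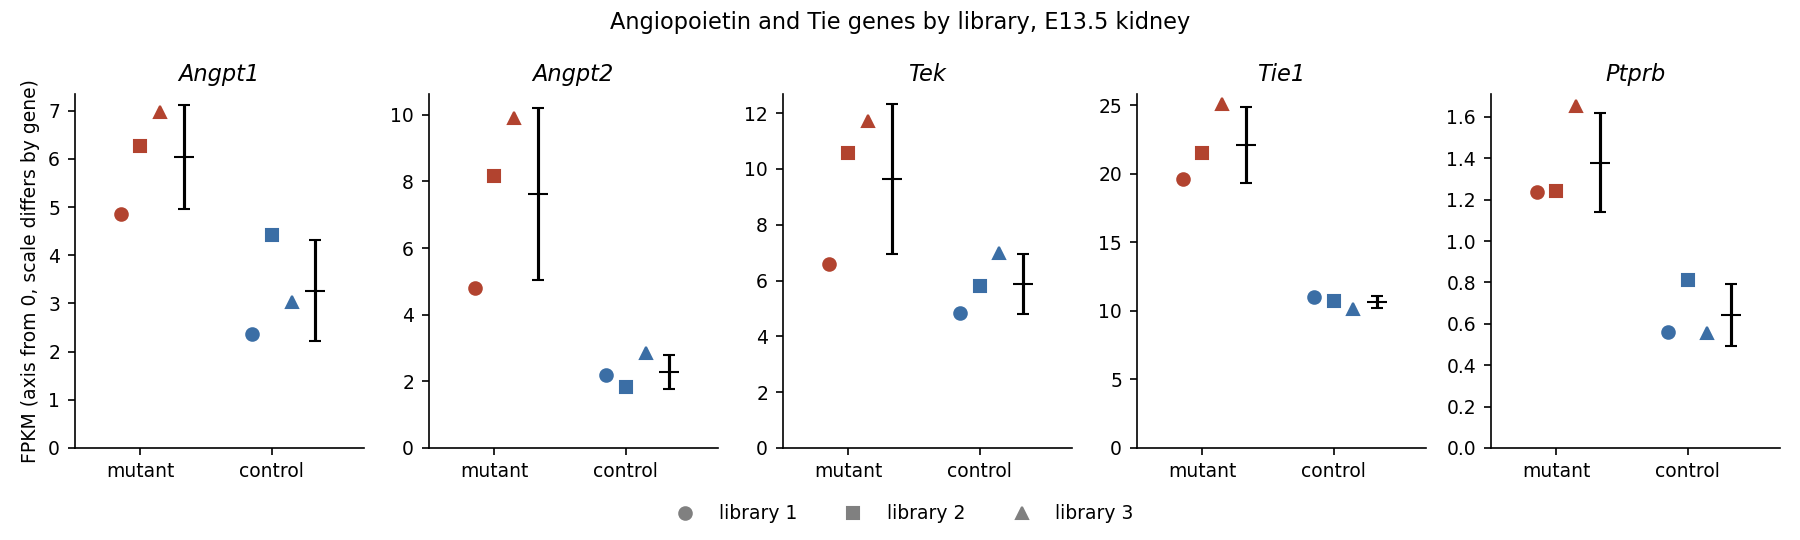
FPKM (reads scaled to gene length and library depth) of the 5 genes in each library, mutants in red on the left and controls in blue on the right of each panel, with the mean ± SD of 3 libraries as a bar. Mutants lie above all controls for Angpt1, Angpt2, Tie1 and Ptprb, while mutant 1 overlaps the controls for Tek.

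Angpt2 (ENSMUSG00000031465.6, chromosome 8, 18690263 to 18741562, minus strand, GRCm38) had the largest fold change of the 5 genes. It was at 4.80, 8.17 and 9.90 FPKM in mutants 1 to 3, against 2.17, 1.84 and 2.85 FPKM in controls 1 to 3. The lowest mutant was thus above the highest control, and the mutants were spread over a wider range than the controls. The mean was 7.62 ± 2.59 FPKM in mutants and 2.29 ± 0.514 FPKM in controls (SD, n = 3 each), which is 3.33-fold. Its log2 fold change was 1.69 (SE 0.28, 95% interval 1.04 to 2.34), and it missed the threshold over all genes with a limma adjusted p of 0.0659. The authors' deposited table gave 1.81 with an adjusted p of 5.76e-08. Without control 2 limma gave 1.55 (adjusted p = 0.0466). Angpt2 lies within the span of Mcph1, a gene of the opposite strand that shares 0 exonic bases with it. Mcph1 was at 3.89, 4.83 and 4.20 FPKM in the mutants and 4.40, 5.97 and 4.46 FPKM in the controls, and the groups overlapped (log2 fold change -0.19, limma adjusted p = 0.679).

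Angpt1 (ENSMUSG00000022309.9, chromosome 15, 42424723 to 42676977, minus strand) was at 4.86, 6.26 and 6.98 FPKM in mutants 1 to 3, against 2.36, 4.42 and 3.02 FPKM in controls 1 to 3. The gap between the groups was narrow, since control 2 came close to mutant 1. The mean was 6.03 ± 1.08 FPKM in mutants and 3.26 ± 1.05 FPKM in controls (SD, n = 3 each). The log2 fold change of 0.92 (SE 0.25, 95% interval 0.35 to 1.48) did not pass limma over all genes (adjusted p = 0.274), nor did Angpt1 pass in the authors' deposited table (log2 fold change 0.70, adjusted p = 0.122). The value depended on which controls were used. It was 1.16 (limma adjusted p = 0.0363) without control 2 and 0.71 (limma adjusted p = 0.249) without control 1. An antisense gene, Gm17473, shares 737 exonic bases with Angpt1 and had 0 to 6 reads per library, against 219 to 1422 reads per library of Angpt1. Strand handling is not given, so how many Angpt1 reads fall in the shared bases is not known.

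Angpt1 and Angpt2 were about equally abundant in mutant 1, control 1 and control 3. The ratio of Angpt2 to Angpt1 FPKM was 0.988, 1.30 and 1.42 in mutants 1 to 3, against 0.923, 0.416 and 0.943 in controls 1 to 3. Every mutant was above every control, but mutant 1 exceeded controls 1 and 3 by little, and control 2 alone had a ratio far below 1. On the log2 scale the mean ratio was 0.29 ± 0.27 in mutants and -0.49 ± 0.67 in controls (SD, n = 3 each). The difference of 0.78 (SE 0.42) had an exact permutation p of 0.1, two-sided, the smallest that 3 against 3 libraries allow, and an adjusted p of 0.233 over the 7 within-library values tested. Without control 2 the difference was 0.39.

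**Figure D2:**
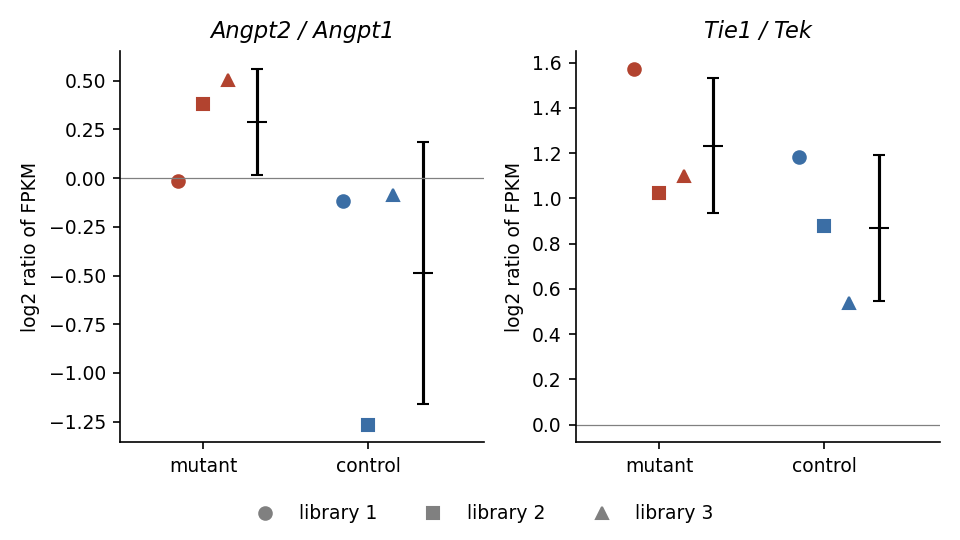
Log2 ratio of FPKM of Angpt2 to Angpt1 and of Tie1 to Tek in each library, mutants left and controls right, with the mean ± SD of 3 libraries. Control 2 is the low point for the ligand ratio at -1.27, and the receptor ratio overlaps between groups.

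Tie1 (ENSMUSG00000033191.14, chromosome 4, 118471191 to 118490061, minus strand) was the most abundant of the 5 genes in every library and the only one called. It was at 19.6, 21.6 and 25.1 FPKM in mutants 1 to 3, against 11.0, 10.7 and 10.2 FPKM in controls 1 to 3. The controls differed little, with a coefficient of variation of 4.17%, and all mutants lay well above them. The log2 fold change was 1.05 (SE 0.13, 95% interval 0.76 to 1.34, limma adjusted p = 0.0175), and the authors' deposited table gave 1.10 with an adjusted p of 2.13e-06. The call depended on which libraries were used. The limma adjusted p was 0.0561 to 0.110 without mutant 1, mutant 2, mutant 3, control 1 or control 3, and 0.0119 without control 2, with log2 fold changes of 0.95 to 1.13.

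Tek (ENSMUSG00000006386.15, chromosome 4, 94739289 to 94874976, plus strand) had the smallest fold change of the 5 genes and was the one whose groups overlapped. It was at 6.59, 10.6 and 11.7 FPKM in mutants 1 to 3, against 4.85, 5.82 and 6.99 FPKM in controls 1 to 3. Mutant 1 fell between controls 2 and 3, while mutants 2 and 3 were above all controls. The means were 9.63 ± 2.70 FPKM in mutants and 5.89 ± 1.07 FPKM in controls (SD, n = 3 each). The log2 fold change was 0.68 (SE 0.23, 95% interval 0.15 to 1.21, limma adjusted p = 0.428), and the authors' deposited table gave 0.64 with an adjusted p of 0.106. Tek did not pass limma in any of the 6 fits that each left out 1 library (adjusted p 0.213 to 0.686).

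The ratio of Tie1 to Tek FPKM was 2.98, 2.04 and 2.14 in mutants 1 to 3, against 2.27, 1.84 and 1.45 in controls 1 to 3. Tie1 was above Tek in all 6 libraries, and 1 mutant had a ratio above all controls. The difference in log2 ratio was 0.37 (SE 0.25, exact permutation p = 0.3, two-sided, adjusted p = 0.525 over 7 values). The smallest p that 3 against 3 libraries allow is 0.1, so this test cannot decide whether the 2 receptor genes responded differently.

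Ptprb (ENSMUSG00000020154.10, chromosome 10, 116275523 to 116389535, plus strand), whose phosphatase acts on Tek, was the lowest of the 5 genes in every library. It was at 1.24, 1.24 and 1.66 FPKM in mutants 1 to 3, against 0.562, 0.814 and 0.554 FPKM in controls 1 to 3. Each mutant was above each control, with control 2 the highest of the controls. Because the gene is long (13333 exonic bases), this level still rested on 198 to 943 reads per mutant library and 146 to 243 per control library. The exact Poisson 95% interval of the smallest of these, 146 reads in control 1, was 123 to 172 reads and covers counting error only. The log2 fold change was 1.11 (SE 0.22, 95% interval 0.61 to 1.60), and it did not pass limma over all genes (adjusted p = 0.106). The authors' deposited table gave 1.02 with an adjusted p of 0.0215. Without control 2 the limma log2 fold change was 1.29 (adjusted p = 0.0181).

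By mean FPKM the order in mutants was Tie1, Tek, Angpt2, Angpt1 and Ptprb. The libraries of Tek and Angpt2 overlapped there, as did those of Angpt2 and Angpt1. In controls the order was Tie1, Tek, Angpt1, Angpt2 and Ptprb, and only Angpt1 and Angpt2 overlapped as neighbours. The 2 ligand genes thus changed places between the groups, but in each group their ranges over the libraries overlapped. Within libraries, Angpt2 was below Angpt1 in controls 1 to 3 (ratios 0.923, 0.416 and 0.943) and in mutant 1 (0.988). It was above Angpt1 in mutants 2 and 3 (1.30 and 1.42).

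Among the mutants, all 5 genes were highest in mutant 3 and lowest in mutant 1. The mean log2 level of 20 endothelial markers followed the same order, at 0.68, 0.73 and 0.97 above the control mean in mutants 1 to 3. Mutant 3 was also the deepest library, while mutant 2, not mutant 1, was the shallowest. The controls had no common order. Angpt1 and Ptprb were highest in control 2, Angpt2 and Tek in control 3, and Tie1 in control 1. Across the 6 libraries the log2 levels of the 5 genes had pairwise Pearson correlations of 0.78 to 0.95, which include the difference between the groups and are given as a description. With the endothelial mean the correlation was 0.99 for Tie1, 0.97 for Angpt2, 0.92 for Ptprb, 0.82 for Tek and 0.81 for Angpt1.

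Of 20 endothelial markers outside the 5 genes, 20 had positive fold changes (median 0.87, range 0.33 to 1.31), 4 were called higher, 17 had every mutant above every control and 14 were called higher in the authors' deposited table. Over all genes these shares were 49.1% positive, 0.219% called higher, 7.57% without overlap and 3.07% called higher in the deposited table. Without control 2, where genotype and sex cannot be told apart, 8 of the 20 were called, against 0.658% of all genes. Their summed level was 498 to 588 FPKM in mutants and 294 to 335 FPKM in controls, and no marker was at 0 in a group. The called markers were Emcn, a sialoglycoprotein of capillaries and veins (23.3 ± 2.23 FPKM in mutants and 9.38 ± 0.944 FPKM in controls), the adhesion molecules Esam (23.0 ± 1.19 and 11.7 ± 0.905 FPKM in the same order) and Icam2 (23.8 ± 1.05 and 12.2 ± 0.734 FPKM), and the tight junction gene Cldn5 (63.4 ± 6.27 and 34.8 ± 3.19 FPKM; SD, n = 3 each). Angpt2 had a larger fold change than all 20 markers. Tie1 and Ptprb exceeded 18 of the 20, Angpt1 exceeded 12 and Tek exceeded 6.

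**Figure D3:**
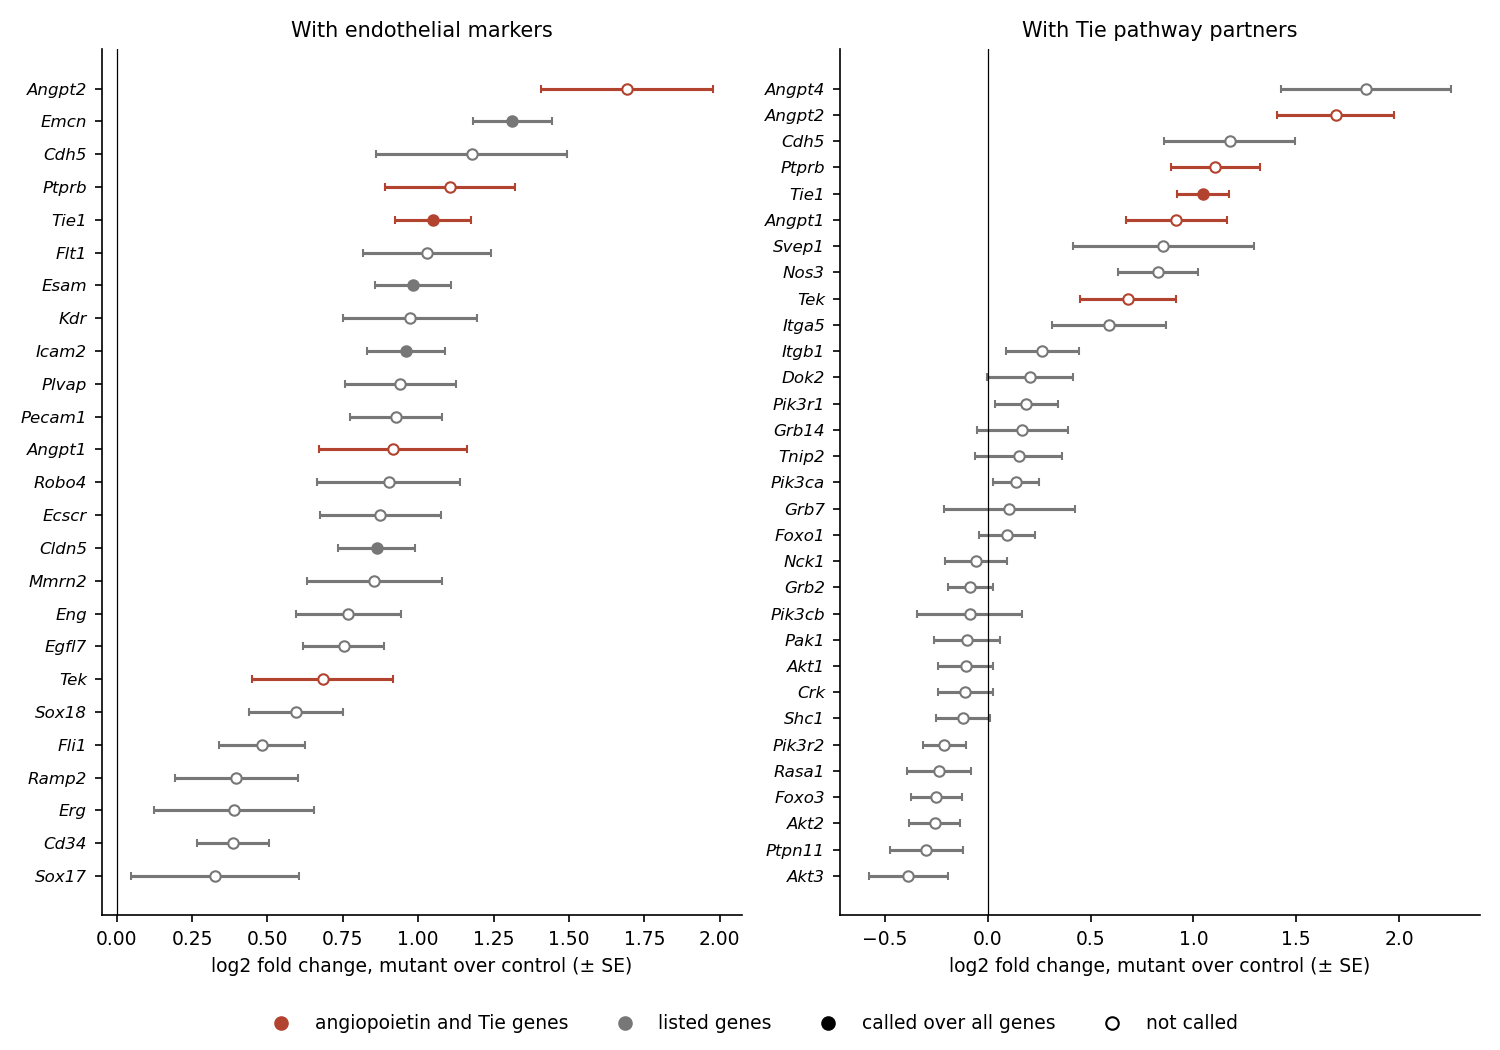
Log2 fold changes (mutant over control, ± SE from limma) of the 5 genes in red with 20 endothelial markers (left) and 26 Tie pathway partners (right) in grey, filled where called over all genes. The 5 genes lie at 0.68 to 1.69, the endothelial markers at 0.33 to 1.31 and the partners on both sides of 0.

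Set against the mean of the 20 endothelial markers within each library, Angpt2 and Tie1 were still higher in every mutant than in every control. How many of the 20 markers or of all genes do so on this scale was not counted, so this does not set Tie1 apart from them. The markers Emcn and Cdh5 had larger log2 fold changes than Tie1 (1.31 and 1.18 against 1.05), and 18 of the 20 had smaller ones. For Angpt2 the log2 level minus the endothelial mean was -1.49, -0.77 and -0.73 in mutants 1 to 3, against -2.00, -2.11 and -1.59 in controls 1 to 3. The difference was 0.90 (SE 0.29). For Tie1 it was 0.79, 0.87 and 0.86 in mutants 1 to 3, against 0.59, 0.68 and 0.49 in controls 1 to 3, a difference of 0.25 (SE 0.060). Both had an exact permutation p of 0.1, two-sided, the smallest that 3 against 3 libraries allow. Their adjusted p was 0.233 over 7 values. No value can fall below 0.05 in this test, so it cannot decide for either gene. With the median of the 20 markers in place of the mean, the differences were 0.89 for Angpt2 and 0.24 for Tie1. Each then had an exact permutation p of 0.2, so the groups no longer separated fully. Against the mean of the markers the Ptprb groups overlapped (difference 0.31, SE 0.23, exact permutation p = 0.4), with control 2 above all mutants. Angpt1 (difference 0.12, SE 0.32, exact permutation p = 0.7) and Tek (difference -0.11, SE 0.26, exact permutation p = 0.6) had differences well within the spread, and leaving out 1 library turned their sign: Angpt1 was at -0.11 without control 1, and Tek at 0.085 without mutant 1 and 0.0062 without control 3.

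**Figure D4:**
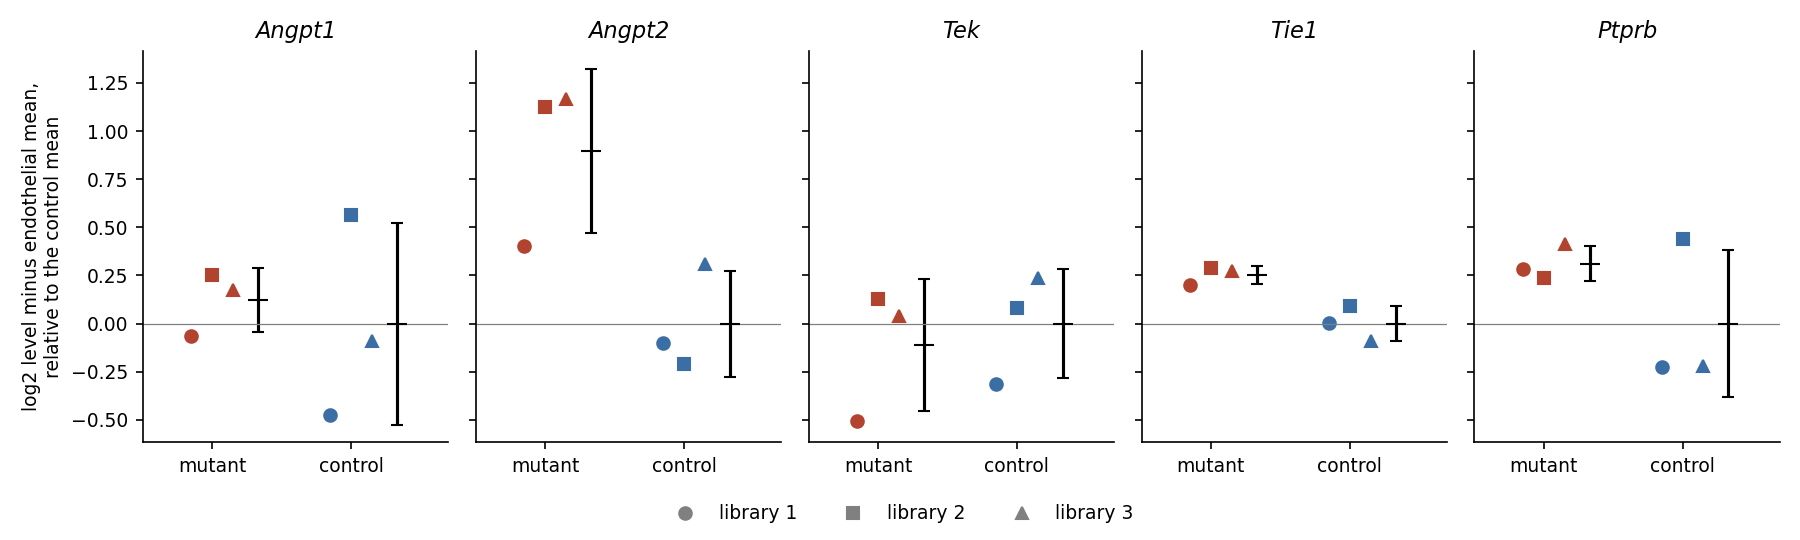
Log2 level of each gene minus the mean of 20 endothelial markers in the same library, with the control mean of each gene set to 0. Mutants are on the left and controls on the right with the mean ± SD of 3 libraries. Angpt2 and Tie1 separate the groups on this scale, though not fully with the median of the markers, while Angpt1, Tek and Ptprb overlap.

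The listed partners of the receptors comprise another angiopoietin, adaptors, the PI3K, Akt and Foxo genes, Nos3, Cdh5 and an integrin pair. Of these 26 genes 0 were called in limma over all genes, while 3 were below 0.05 before adjustment and 3 were called higher by the authors' deposited table. Over all genes tested, 0.307% were called in limma and 9.63% were below 0.05 before adjustment, in either direction. The deposited table called 3.07% of its genes higher. The median log2 fold change of the 26 partners was 0.018, with 13 of 26 positive. The genes below were singled out after their values were seen. A further angiopoietin gene, Angpt4, was low throughout, at 1.15, 0.544 and 0.663 FPKM in mutants 1 to 3, against 0.157, 0.273 and 0.174 FPKM in controls 1 to 3. Every mutant was above every control, on 17 to 74 reads per mutant library and 8 to 16 per control library (log2 fold change 1.84, SE 0.41, limma adjusted p = 0.161). Nos3, the endothelial nitric oxide synthase gene downstream of Tek, was at 4.55, 5.59 and 6.03 FPKM in mutants, against 2.62, 3.79 and 2.76 FPKM in controls, also without overlap (limma adjusted p = 0.184). It was the 1 partner gene called without control 2 (log2 fold change 0.99, limma adjusted p = 0.0386). Cdh5, the cadherin partner of Ptprb and one of the 20 endothelial markers, was the third partner gene with every mutant above every control (37.4 ± 13.2 FPKM in mutants and 16.7 ± 5.77 FPKM in controls, limma adjusted p = 0.281).

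The authors' deposited table called Cdh5, Svep1 and Itga5 among the partners. Svep1 encodes a matrix protein that binds Tie1 in human cells (4.31 ± 1.95 FPKM in mutants and 2.50 ± 1.28 FPKM in controls), and Itga5 an integrin subunit (24.1 ± 4.39 and 16.7 ± 5.99 FPKM in the same order, SD, n = 3 each). The groups overlapped for both. In the kinase and transcription factor arm downstream of Tek, Akt2 (27.9 ± 0.891 FPKM in mutants and 33.6 ± 3.89 FPKM in controls), Foxo3 (8.62 ± 0.557 and 10.3 ± 1.09 FPKM) and Pik3r2 (36.2 ± 1.60 and 41.9 ± 0.810 FPKM) had every mutant below every control, with limma adjusted p of 0.542, 0.549 and 0.546. Foxo1, a transcription factor that activates Angpt2 when Akt is inactive, was at 5.21 ± 0.720 FPKM in mutants and 4.86 ± 0.326 FPKM in controls (limma adjusted p = 0.803). Over all genes tested, 16.7% had groups that did not overlap in either direction, against 6 of these 26.

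Angiopoietin-like genes, secreted relatives that do not act through Tek, gave 0 calls among 5 tested in limma or in the authors' deposited table and 0 below 0.05 before adjustment in limma (median log2 fold change 0.32). The most abundant were Angptl2 (16.8 ± 3.04 FPKM in mutants and 13.48 ± 4.14 FPKM in controls) and Angptl4 (10.2 ± 2.73 and 8.35 ± 2.96 FPKM). Over all genes tested, 0.307% were called in limma and 9.63% were below 0.05 before adjustment, in either direction. The deposited table called 3.07% of its genes higher, so counts of 0 among 5 do not set these genes apart.

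Genes of endothelial subtypes and of other cells that make or bind angiopoietins were measured beside these. In limma with all libraries 0 members of these lists were called, and without control 2 there were 1 arterial, 1 venous, 2 mural and 0 tip cell, lymphatic, macrophage or platelet calls. Of 7 arterial genes 6 had every mutant above every control (median 0.57), among them Efnb2 (21.7 ± 0.987 FPKM in mutants and 16.4 ± 4.19 FPKM in controls), while Hey1 overlapped (14.8 ± 1.76 and 18.8 ± 9.03 FPKM). Of 5 venous genes 3 did (median 0.81), with Nr2f2 (176 ± 9.21 and 149 ± 30.6 FPKM) and Ephb4 (43.8 ± 6.16 and 41.6 ± 3.33 FPKM) overlapping. Tip cell genes, which mark sprouting endothelium where Angpt2 is known to be high, had 0 of 6 without overlap and a median of 0.16, with Nid2 at 29.1 ± 6.43 FPKM in mutants and 25.0 ± 10.8 FPKM in controls and Pgf at 8.72 ± 1.77 and 8.83 ± 3.68 FPKM. Lymphatic genes had 1 of 6 with every mutant higher (median 0.30), and the defining factor Prox1 was at 0.391 ± 0.198 FPKM in mutants and 0.475 ± 0.0734 FPKM in controls. The gene without overlap was Lyve1 (1.76 ± 0.435 FPKM in mutants and 1.18 ± 0.0452 FPKM in controls). Below 0.05 before adjustment there were 6 arterial, 3 venous and 0 tip cell genes and 1 lymphatic gene, Reln, which was lower in mutants (log2 fold change -0.64). The authors' deposited table called 2 arterial, 3 venous, 0 tip cell and 0 lymphatic genes. Over all genes tested, 7.57% had every mutant above every control and 9.63% had a p below 0.05 in either direction, and the deposited table called 3.07% higher. These background shares also apply to the mural, macrophage and platelet counts.

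Mural cells, a source of Angpt1, had 8 of 11 tested genes with positive fold changes (median 0.71), 4 with every mutant higher, 5 below 0.05 before adjustment and 4 called by the authors' deposited table. Their summed level was 118 to 171 FPKM in mutants and 82.0 to 110 FPKM in controls. Pdgfrb was at 25.9 ± 4.59 FPKM in mutants and 16.0 ± 3.62 FPKM in controls, and Acta2 at 31.5 ± 11.2 and 15.7 ± 8.34 FPKM. The 3 mural genes with negative log2 fold changes, all with overlapping groups, were Rgs5 (10.1 ± 1.23 FPKM in mutants and 13.3 ± 7.08 FPKM in controls, log2 fold change -0.27), Kcnj8 (6.22 ± 2.53 and 7.12 ± 1.76 FPKM, -0.27) and Ren1 (4.77 ± 3.68 and 4.01 ± 1.45 FPKM, -0.34). Macrophages, some of which express Tek, had 10 of 10 genes with positive fold changes (median 0.67, 6 below 0.05 before adjustment, 0 called by the authors' deposited table) and a summed level of 26.5 to 44.4 FPKM in mutants and 21.3 to 25.3 FPKM in controls. The most abundant were C1qa (6.95 ± 1.83 FPKM in mutants and 4.19 ± 0.782 FPKM in controls) and C1qb (6.96 ± 2.20 and 4.05 ± 1.03 FPKM). Platelets are known to carry Angpt1, and genes of platelets and megakaryocytes had 5 of 5 positive (median 0.55, summed level 8.72 to 13.6 FPKM in mutants and 6.16 to 6.60 FPKM in controls, 2 below 0.05 before adjustment). None of the markers of these 3 cell types that were tested was at 0 in a group, and their part in the values of the 5 genes was not tested. Podocyte genes had a median of 0.062, nephron progenitor genes -0.16, ureteric epithelium 0.39, stroma 0.35 and red cells -0.22.

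The genes with the most similar pattern over the 6 libraries were found by Pearson correlation of log2(normalized count + 1), as a description. For Angpt1 they were Entpd1, Hist1h4c, Pax1, Rftn1 and Rasip1 (0.99 to 1.00). For Angpt2 they were Nap1l5, Tspan11, Ctgf, Tgfb1 and Pam (0.99 to 1.00), for Tek Ldb2, Plk2, Adra1d, Pi15 and Adgrl4 (0.97 to 0.99), for Tie1 Myct1, Acer3, Lhfpl3, Cd38 and Thbd (0.99), and for Ptprb Adora2a, Megf11, Notch1, Artn and Bik (0.98 to 1.00). Of 14415 genes compared, 98 to 216 had a correlation over 0.9 with a given one of the 5 genes, so these names are the top of long lists. Of the 25, only Thbd, the thrombomodulin gene of the vessel lining, was called (8.13 FPKM in mutants and 1.14 FPKM in controls on average, limma adjusted p = 0.0139).

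**Figure D5:**
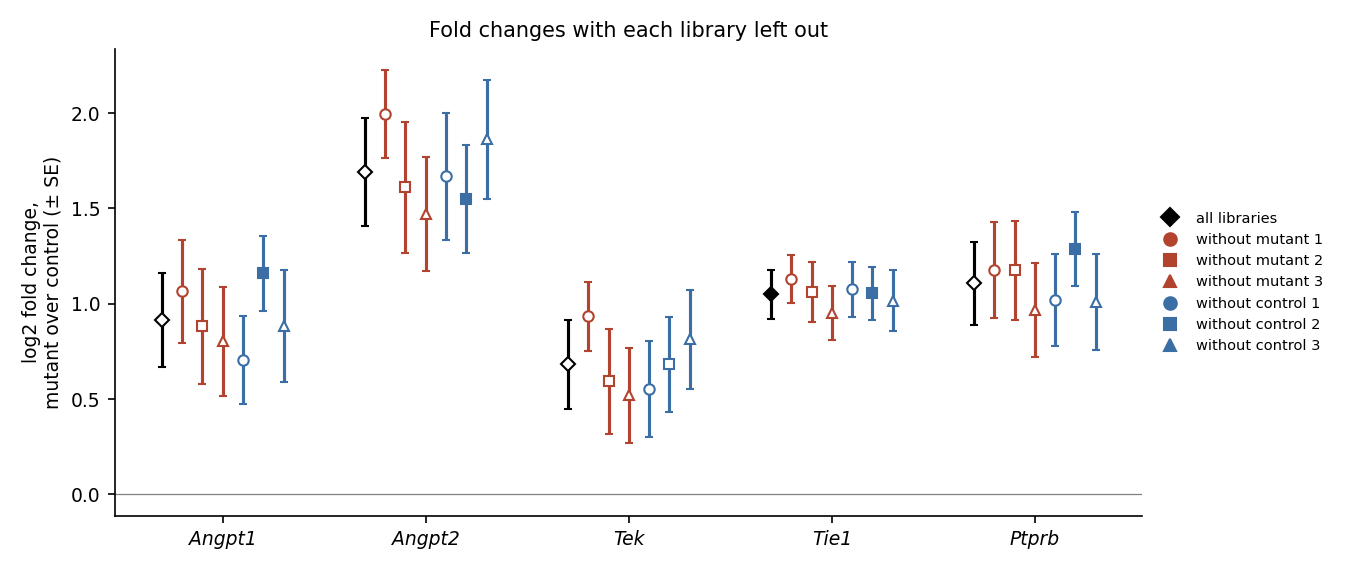
Log2 fold change (mutant over control, ± SE from limma) of each gene with all libraries (black) and without each mutant (red) or control (blue) library, filled where the adjusted p over all genes was under 0.05. Every value is positive, Tie1 is filled with all libraries and without control 2, and Angpt1, Angpt2 and Ptprb are filled only without control 2.

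The fold changes of the authors' deposited table did not weigh the 3 controls alike. In a least-squares fit over 10676 genes with a mean normalized count over 200, the deposited log2 fold change followed the log2 FPKM of controls 1 to 3 with weights of 0.017, -0.59 and -0.35, and that of mutants 1 to 3 with weights of 0.29, 0.25 and 0.38. The median absolute difference between the deposited log2 fold change and the one computed from group means of the 6 FPKM columns was 0.0847, and it was 0.0156 when control 1 was left out. The deposited value was nearer to the limma value without control 1 than to that with all libraries for Angpt1 (0.70 deposited, 0.71 without control 1 and 0.92 with all), Tie1 (1.10, 1.08 and 1.05 in the same order) and Ptprb (1.02, 1.02 and 1.11). It was nearer to that with all libraries for Angpt2 (1.81, 1.67 and 1.69) and Tek (0.64, 0.55 and 0.68). The limma values are differences of mean log2(normalized count + 1), not ratios of group means, so which value lies nearer can depend on the scale. Calls of the deposited table for the 5 genes are therefore not a second test of the same 6 libraries.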

How the data were processed

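Messenger RNA of whole E13.5 kidneys was sequenced in 3 mutant and 3 control libraries. Per the submitters' processing notes, the tools were DESeq2, HTSeq 0.6.1p2, STAR 2.6.0c and Trim Galore and the build mm10, without roles or order. Strand handling in counting is not given in the sources. Values per library are the authors' FPKM, a unit read from the values. Per the file headers, the deposited table also gave the authors' mean normalized signal, log2 fold change, test score (stat), p-value and adjusted p-value.

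FPKM multiplied by the gene's mean normalized signal over its mean FPKM gave normalized counts, and all 134364 values came out as whole reads (tolerance 1e-06), which gave the depths. The limma package (3.58.1, R 4.3.3), with its trend option, was fitted to log2(normalized count + 1) for 16933 genes having at least 10 normalized counts in 3 or more libraries, after being tested on simulated data. Fold changes are on that scale, which understates changes of low genes. Within-library ratios and levels relative to the endothelial markers were tested by exact permutation. Alternatives were other pseudocounts, filters, scalings and weights, voom, a replicate block and leaving out each library. The members and lists were chosen with earlier results of these data known. Genes named were the 5 genes, called members of the partner and endothelial lists, up to 2 abundant members of other lists, and the 5 closest patterns per gene, and others are marked. Positions came from GENCODE M21 (GRCm38, the assembly of mm10). Higd1b was not analysed here.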

Additional observations from a re-analysis of the deposited data

How the results depend on the processing

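All 5 log2 fold changes stayed positive under every alternative run. On log2(deposited FPKM + 1) that of Ptprb was 0.53, against 1.11 for normalized counts, since the pseudocount is about as large as its FPKM. Tie1 kept its call with other pseudocounts, filters, deposited FPKM, quantile scaling, library weights and voom on whole reads, and the other 4 genes stayed uncalled except as follows. With limma's library weights, whose estimation stopped before its convergence tolerance, Angpt1 (1.09, adjusted p = 0.0103), Angpt2 (1.68, 0.00604) and Ptprb (1.31, 0.00619) were called, and 380 genes in all. The weight of control 2, the only control expressing Ddx3y, was 0.333, the lowest. Leaving out each library in turn gave log2 fold changes of 0.71 to 1.16 for Angpt1, 1.47 to 1.99 for Angpt2, 0.52 to 0.94 for Tek, 0.95 to 1.13 for Tie1 and 0.97 to 1.29 for Ptprb, and 6 (without mutant 2) to 149 (without control 2) genes called in place of 52. Counting list members called without control 2 was added after seeing the data. Relative to the endothelial markers the ranges were -0.11 to 0.40 for Angpt1 and -0.27 to 0.085 for Tek, which turned sign. Same-numbered mutant and control libraries had correlations of deviations of 0.00081, -0.098 and 0.31, so the numbers were not taken to pair them, and not every library correlated best with its own number. With a replicate block Tie1 (log2 fold change 1.05) had an adjusted p of 0.0687 and 17 genes were called. The lowest genes are limited by depth, 146 reads for Ptprb in control 1.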
